A study of Mus musculus with 107 samples.

Results

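Cytokine signalling through gp130 was followed in 10 genes: the receptors Cntfr, Lifr, Il6st, Osmr and Il6ra, the ligand gene Lif, the transducer Stat3, its feedback inhibitors Socs3 and Socs1, and the target gene Bcl3. They were chosen by gene symbol, with earlier results of these data known, and are 10 of the 27179 genes counted in this mouse RNA-Seq series. The gene lists set beside them, STAT3 targets included, were chosen in the same knowledge, so their counts and medians are descriptions. All 10 passed the filter on low counts in each of the 22 comparisons, which gives 220 tests, of which 106 were called. A gene was called at an adjusted p below 0.01 in edgeR's quasi-likelihood test over all genes tested.

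Cytokines of the IL6 family signal through receptor complexes that share gp130, the product of Il6st. CNTF binds its own receptor subunit, encoded by Cntfr, and then recruits gp130 and the LIF receptor, encoded by Lifr, while oncostatin M and IL6 use the subunits encoded by Osmr and Il6ra. The complexes activate JAK kinases, which phosphorylate STAT3, and STAT3 drives transcription of its own inhibitor Socs3 and of genes such as Bcl3 and Osmr. In the nervous system this pathway is known for promoting astrocyte formation from progenitors and for astrocyte reactivity after injury.

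The study derived neural progenitor cells (NPC) from 1 female C57BL/6 mouse embryonic stem cell (ESC) line carrying RiboTag, a haemagglutinin tag on a ribosomal protein, and followed them through differentiation in culture and after grafting into spinal cord. RNA bound to tagged ribosomes was pulled down and sequenced in libraries of 23 groups. The culture groups held 4 libraries each, apart from 6 of a second NPC derivation, and the pipetting, graft and injured host groups held 5 each, with 9 of healthy host astrocytes. Since all NPC came from 1 line, and nothing in the labels says which libraries came from separate cultures, p-values within the culture groups measure only the spread between those libraries.

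ESC were grown with LIF and fetal bovine serum (FBS). NPC were expanded in EGF and FGF at 100 ng/ml and profiled at passages 5, 15 and 30, with 2 other derivations (D2, D3) at passage 15. Spontaneous differentiation (SPONT) lowered EGF and FGF to 1 ng/ml for 4 days, and CNTF at 100 ng/ml, IGF-1 at 100 ng/ml, or FBS at 1, 5, 10 or 20% were added to that medium for the same time. A further group received CNTF with 5% FBS, for which the labels give no CNTF dose. In the pipetting experiment NPC were passed through a pipette in medium, in diblock copolypeptide hydrogel (DCH), or in DCH after 4 h in it. NPC were grafted into C57BL/6 spinal cord, either uninjured, or 2 days after a crush injury (SCI), or into a double crush (dSCI). They were recovered at 14 d, with 1 more SCI group recovered at 5 d. The study counts the 5 d from grafting, and the 14 d from grafting or from injury in different places. Only the grafted cells carried the tag in the recipient animals. Host astrocytes came from RiboTag mice with Cre under the Gfap promoter (line 73.12), healthy or 14 days after crush SCI, so that the host libraries show cells in which that promoter has been active. The mice were young adults of both sexes.

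Total counts were 30473157–147764968 in the 96 paired-end libraries and 12286240–18085106 in the 11 single-read libraries, which were all of NPC P15 D2 and all of the 5 d grafts. Levels are given as CPM, the counts of a gene scaled to the library total, and fold changes (log2FC ± SE) after TMM scaling, so that where library composition differs, as in grafts, a log2FC can depart from the ratio of CPM. Astrocyte markers (Gfap, Aqp4, Aldh1l1, Slc1a3, S100b and Gja1, summed) were 25220–32280 CPM in healthy host astrocytes and 7900–11730 CPM in SPONT, with all 6 genes detected. ESC markers were 1466–1526 CPM in ESC and at most 3.49 CPM in any other library. Graft libraries also held myeloid markers (10 genes, 189–12780 CPM) and fibroblast markers (6 genes, 1045–27570 CPM), which were 0.672–14.7 and 4.675–546 CPM in the NPC cultures and their differentiated derivatives. Single libraries moved the counts of calls, in both directions. Without SPONT replicate 2 the genes called for CNTF went from 2961 to 6049, and without SCI graft replicate 5 those called for SCI against uninjured-cord grafts went from 734 to 1576. Calls for IGF-1 went from 979 to 0 without any of SPONT replicates 3 and 4 or IGF-1 replicates 1, 2 and 4, and those for dSCI against SCI grafts from 289 to 0 without any of SCI graft replicates 1, 2 and 3 or dSCI graft replicate 2, in edgeR, with at least 5342 and 2996 genes at an unadjusted p under 0.05. DESeq2, run on all libraries only, called 3619 and 1274 genes. Changes in the calls of the 10 genes without these or other libraries are given beside each result. In bulk libraries like these, fewer cells of a type and less RNA per cell cannot be told apart.

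Per transcript length (FPKM, from union exon lengths), the receptor genes differed in level within every group. In NPC at passage 15, Cntfr stood at 19.03 ± 1.32 FPKM (SD, n = 4), Il6st at 10.5 ± 1.19 and Lifr at 5.70 ± 0.214 FPKM. Osmr was at 0.0830 ± 0.0527 and Il6ra at 0.174 ± 0.151 FPKM in the same libraries. The 3 CNTF receptor subunits were thus well above the oncostatin M and IL6 subunits in progenitors. In healthy host astrocytes Cntfr reached 208 ± 41.1 FPKM (SD, n = 9) against 35.3 ± 7.001 for Il6st and 7.67 ± 0.964 for Lifr. In grafts in SCI at 14 d the order was different, with Il6st at 43.5 ± 9.17, Cntfr at 19.6 ± 3.96 and Osmr at 12.2 ± 3.05 FPKM (SD, n = 5).

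**Figure D1:**
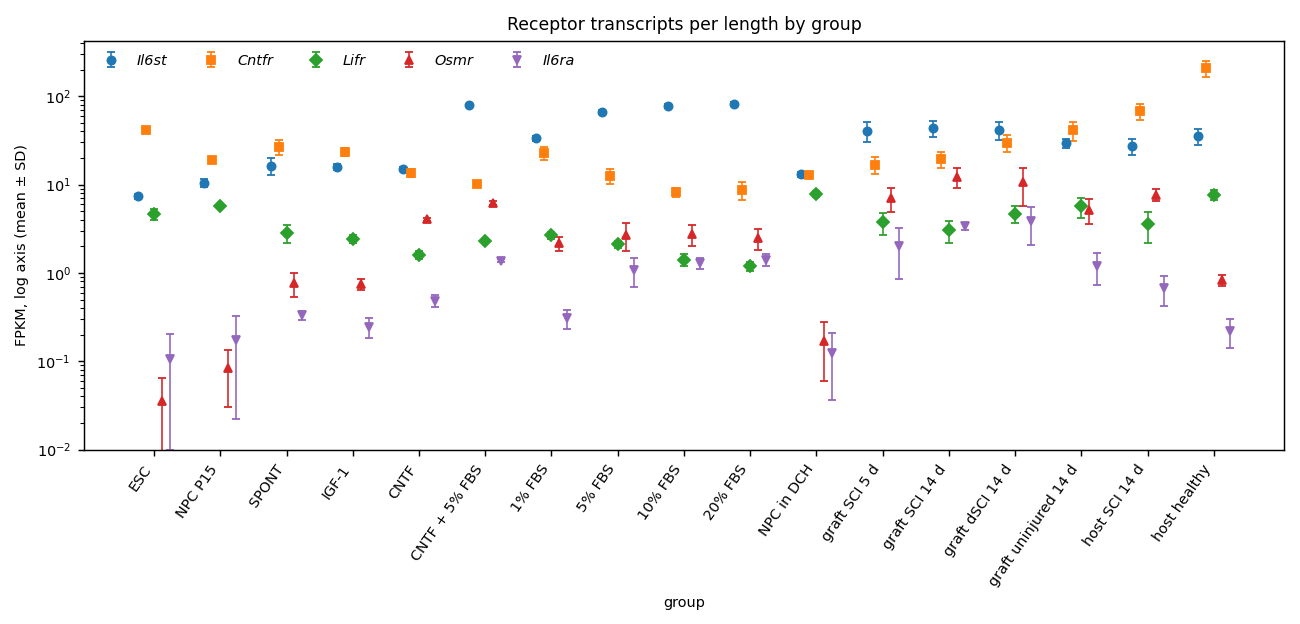
Mean FPKM ± SD of the 5 receptor genes in 17 groups, on a log axis cut at 0.01, where SD bars that reach lower end. Cntfr is highest in healthy host astrocytes, Il6st rises with serum, and Osmr and Il6ra, lowest in ESC, NPC P15 and NPC in DCH, are highest in SCI and dSCI grafts.

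Of the pathway genes outside these 10, Jak1, the kinase bound to gp130, was at 163 ± 3.86 CPM in NPC P15 and 144 ± 22.1 CPM in SPONT (SD, n = 4). Of the ligand genes, Cntf itself was at 1.18 ± 0.280 CPM and Ctf1, cardiotrophin 1, at 1.58 ± 0.314 CPM in SPONT. Il27 and Ctf2 did not reach a mean of 1 CPM in any group.

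The promoters were read for the palindrome TTCNNNGAA, the spacing that STAT dimers bind, in RefSeq windows around listed starts (GRCm38.p6). The windows are short (for Socs3 chr11:117969317-117969616), and sites outside them were not searched. For Cntfr, Lifr, Osmr and Socs3 no window reaches the outermost 5′ end of the gene's annotated span. Socs3 was the only one of the 10 genes with a match in these windows, 1 site whose first base lies at −154 from the start used for its window. The stretch is shown because Socs3 is the feedback gene on which the CNTF comparisons turn, with the match in capitals, from chr11:117969482-117969550, minus strand, 5′ to 3′.
Socs3: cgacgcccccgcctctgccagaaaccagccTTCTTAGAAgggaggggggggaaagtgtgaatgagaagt
The palindrome reads the same on both strands and was found in 2726 of 32851 windows (8.30%), so a match is a description of these letters and not of binding. Among the 23 STAT3 target genes with a window, 5 had it (Gfap, Bcl6, Steap4, Icam1 and Fgl2), and of 27025 genes with a window 9.55% had it in at least 1.

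The first comparison asks how the pathway genes stood once ESC, kept in LIF, had become NPC. Of the 10 genes, 1 was higher and 5 were lower in NPC P15 than in ESC, where 32.2% of all genes tested were called higher and 34.9% lower. Socs3 (RefSeq GRCm38.p6, chromosome 11, 117966079–117970336) was at 206, 197, 209 and 190.1 CPM in the ESC libraries and 4.27, 6.79, 4.42 and 1.42 CPM in NPC P15. Every ESC library was far above every NPC library (log2FC −5.62 ± 0.32, adjusted p = 2.07e-08). Bcl3, a nuclear IκB-family regulator of NF-κB (chromosome 7, 19808462–19822824), was at 152, 133.9, 162 and 170.8 CPM in ESC and 0.0626, 1.65, 0.620 and 0.472 CPM in NPC P15, also without overlap (log2FC −7.83 ± 0.47, adjusted p = 3.3e-08). Lif fell from 4.75 ± 1.52 to 1.07 ± 0.527 CPM (SD, n = 4 each, log2FC −2.25 ± 0.47, adjusted p = 0.00105) and Cntfr from 114 ± 7.196 to 52.9 ± 3.68 CPM (log2FC −1.20 ± 0.07, adjusted p = 3.78e-08). Socs1 was lower as well (log2FC −1.18 ± 0.35, adjusted p = 0.00912), but its call was lost without ESC replicate 1, 2 or 4 or NPC P15 replicate 1, 2 or 4 (adjusted p 0.0159–0.0328). The receptor chain Il6st was higher (log2FC 0.42 ± 0.09, adjusted p = 0.0012), and with NPC P15 D3 in place of NPC P15 its difference was 0.19 and not called. Stat3 was not called (log2FC 0.09 ± 0.06, adjusted p = 0.179), and with D3 it was lower in NPC (−0.31, adjusted p = 0.00169).

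The 13 other genes that restrain the pathway included 6 that were lower and 4 that were higher in NPC P15 than in ESC. Socs2, a feedback inhibitor of STAT5 signalling, was among the lower (log2FC −4.34 ± 0.12), and Socs5 (log2FC 2.31 ± 0.15) among the higher. Jak2 rose (log2FC 3.94 ± 0.32) while Jak3 fell (log2FC −3.48 ± 0.13).

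After 4 days with little EGF and FGF, 4 of the 10 genes were higher in SPONT than in NPC P15 and 1 was lower, where 29.8% of all genes were called higher and 27.4% lower. Osmr, the oncostatin M receptor (chromosome 15, 6813568–6874968), was at 1.33, 0.194, 0.837 and 1.66 CPM in NPC P15 and 13.3, 7.13, 8.71 and 8.01 CPM in SPONT. All SPONT libraries exceeded all NPC libraries (log2FC 3.35 ± 0.51, adjusted p = 0.000155). Il6st (0.78, adjusted p = 0.000454), Stat3 (0.70, adjusted p = 3.17e-05) and Cntfr (0.63, adjusted p = 0.00171) rose less. Lifr (chromosome 15, 7090610–7197489) went the other way, from 64.9, 60.3, 60.9 and 59.8 to 37.6, 21.3, 30.5 and 33.4 CPM (log2FC −0.88 ± 0.14, adjusted p = 0.000226). Neither Socs3 (log2FC 0.71 ± 0.37, adjusted p = 0.108) nor Bcl3 (log2FC 0.15 ± 0.81, adjusted p = 0.877) was called. With NPC P15 D3 as the reference, the difference of Lifr was −0.48 and not called, while Il6ra (2.58), Socs1 (1.46) and Lif (−1.42) were called. Il6ra was also called without NPC P15 replicate 2 (1.85, adjusted p = 0.00105). The labels do not say which derivation was differentiated. Gfap rose from 15.2 ± 2.05 to 7879.9 ± 1815 CPM (SD, n = 4 each, log2FC 9.15 ± 0.22). Summed astrocyte markers were 760–810 CPM in NPC P15 and 7900–11730 CPM in SPONT.

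CNTF, added to the SPONT medium, tests the pathway with one of its own ligands. It raised 5 of the 10 genes and lowered 2, where 10.8% of all genes were called higher and 9.15% lower. The median log2FC was 0.51 over the 10 genes and −0.01 over all genes tested. Socs3 was at 6.02, 5.84, 6.75 and 6.75 CPM in SPONT and 67.3, 69.5, 149.8 and 177 CPM with CNTF. Every CNTF library lay far above every SPONT library (log2FC 4.21 ± 0.33, adjusted p = 5.74e-06), and replicates 3 and 4 stood well above replicates 1 and 2. Bcl3 was at 0.729, 1.11, 0.693 and 0.290 CPM in SPONT and 51.5, 49.3, 43.01 and 49.2 CPM with CNTF, the largest change among the 10 genes (log2FC 6.12 ± 0.28, adjusted p = 1.48e-07).

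Osmr was at 13.3, 7.13, 8.71 and 8.01 CPM in SPONT and 47.9, 51.97, 47.4 and 49.3 CPM with CNTF. No libraries overlapped (log2FC 2.42 ± 0.17, adjusted p = 2.99e-06). Socs1, a JAK inhibitor of the same family as Socs3 (chromosome 16, 10783808–10785536), went from 4.82, 4.005, 3.88 and 3.73 to 10.2, 9.90, 11.02 and 10.5 CPM, again apart (log2FC 1.36 ± 0.12, adjusted p = 1.05e-05). Stat3 (chromosome 11, 100886806–100939594) rose from 251, 191, 233 and 227 to 298, 313, 292 and 315 CPM, a smaller shift that also separated the groups (log2FC 0.45 ± 0.08, adjusted p = 0.00119).

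The 2 genes that fell encode the subunits that CNTF binds beside gp130. Cntfr (chromosome 4, 41657498–41697091) was at 54.8, 72.2, 86.2 and 86.6 CPM in SPONT and 40.7, 36.6, 33.1 and 40.5 CPM with CNTF (log2FC −0.97 ± 0.14, adjusted p = 0.000342). Lifr was at 37.6, 21.3, 30.5 and 33.4 and 18.3, 17.7, 14.7 and 18.3 CPM (log2FC −0.81 ± 0.15, adjusted p = 0.00201). In both genes every CNTF library was below every SPONT library. The shared chain Il6st (chromosome 13, 112464070–112506860) was not called (log2FC −0.12 ± 0.12, adjusted p = 0.477), nor were Il6ra (log2FC 0.56 ± 0.16, adjusted p = 0.0182) and Lif (log2FC −0.24 ± 0.31, adjusted p = 0.585). Il6ra was called without SPONT replicate 2 (0.63, adjusted p = 0.00492).

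**Figure D2:**
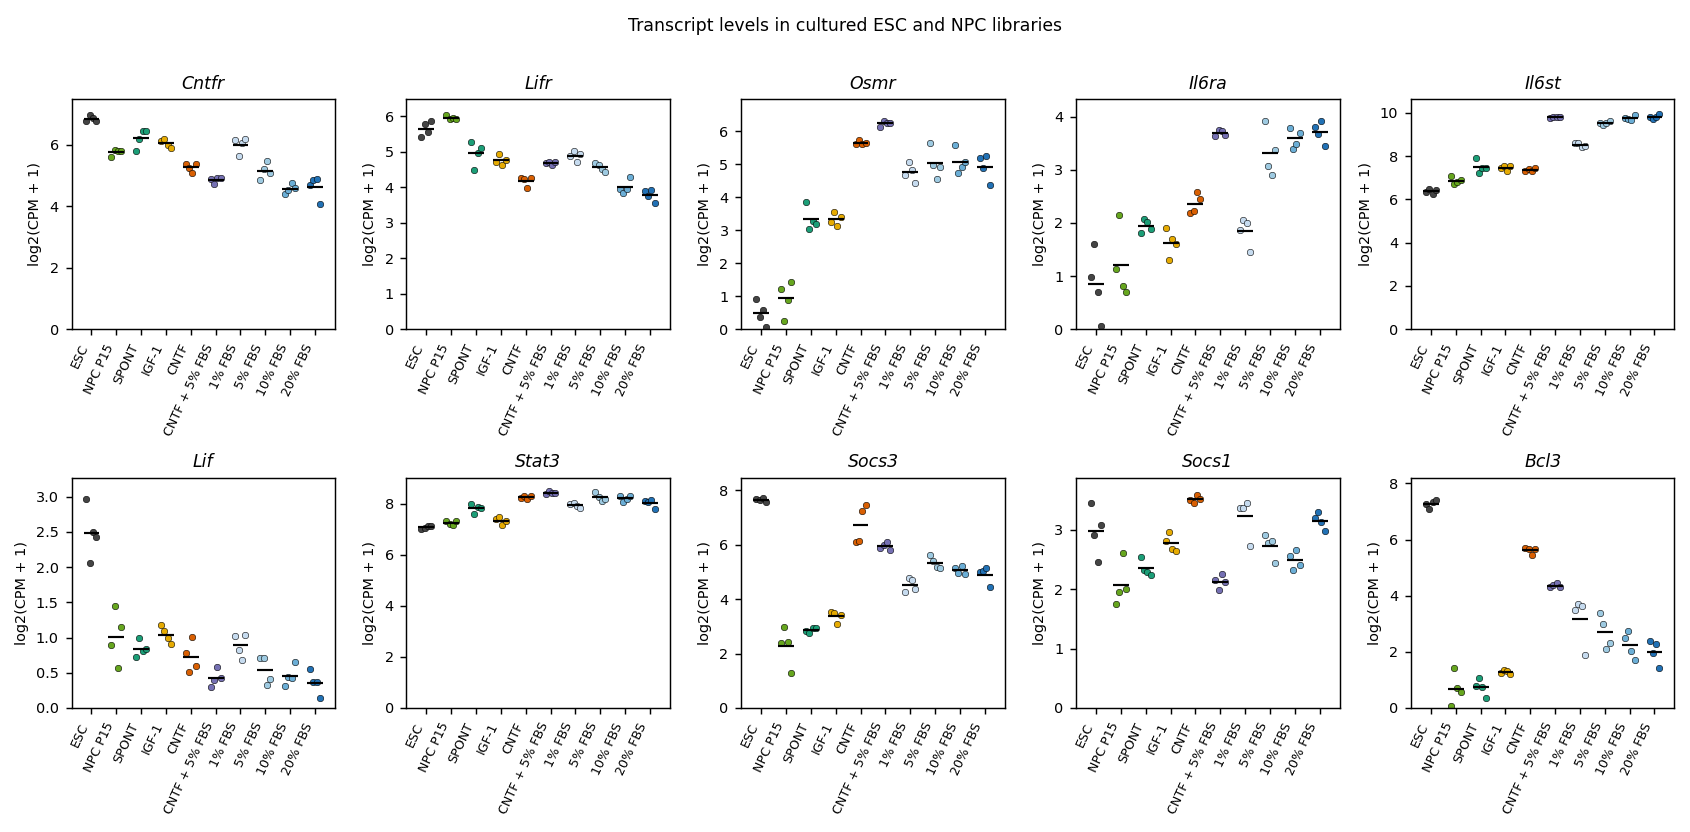
Level of the 10 genes as log2(CPM + 1), 1 point for each library of 10 culture groups, with a line at the group mean. Socs3, Bcl3 and Osmr sit above SPONT in all 4 CNTF libraries, while Cntfr and Lifr sit below it.

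Outside the 10 genes, many STAT3 targets rose with CNTF, and most other pathway genes were not called. The STAT3 target list was chosen with earlier results of these data known. Of 28 target genes tested, 17 rose and the other 11 were not called, with a median log2FC of 0.93 against −0.01 over all genes. The largest were Lcn2, an iron-binding acute-phase protein (log2FC 3.91 ± 0.29), the metalloreductase gene Steap4 (log2FC 3.35 ± 0.23), the protease inhibitor gene Timp1 (log2FC 2.96 ± 0.19) and Junb (log2FC 2.88 ± 0.29). Of the kinases, other STATs and other receptors, Jak3 was the 1 of 8 that was called (log2FC 1.54 ± 0.13). Among 13 other negative regulators, Socs2 (log2FC 1.39 ± 0.13) and Cish (log2FC 0.85 ± 0.14) rose and Pias1 fell (log2FC −0.52 ± 0.09). Clcf1 (0.210 ± 0.0828 to 1.15 ± 0.343 CPM) and Cntf (1.18 ± 0.280 to 2.81 ± 0.338 CPM) were the ligand genes that rose (SD, n = 4 each). Summed astrocyte markers were 7900–11730 CPM in SPONT and 22400–23470 CPM with CNTF, a sum made up mostly of Gfap (7879.9 ± 1815 and 22084 ± 403 CPM), which is also in the target list. Of the 6 markers Gfap and Aqp4 rose, Gja1 fell and 3 were not called, with a median log2FC of −0.16. Myeloid markers were 2.87–5.82 and 3.04–4.20 CPM.

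IGF-1 signals through a receptor tyrosine kinase that does not use gp130. In edgeR 1 of the 10 genes was called higher and 1 lower, with 2.80% of all genes called higher and 3.75% lower. DESeq2, which called 3619 genes in all, called 4 of the 10 (Stat3, Socs3, Socs1 and Bcl3). Socs3 was at 10.4, 10.3, 7.54 and 9.61 CPM with IGF-1, above the SPONT range (log2FC 0.62 ± 0.11, adjusted p = 0.00666), and Stat3 was at 168.4, 178, 142 and 158.6 CPM, below it (log2FC −0.43 ± 0.08, adjusted p = 0.00743). Both calls were lost without any library other than SPONT replicate 2 (adjusted p 0.0119–0.0264 for Socs3 and 0.0127–0.0335 for Stat3). Socs1 (log2FC 0.56 ± 0.12, adjusted p = 0.0115) and Bcl3 (log2FC 1.08 ± 0.33, adjusted p = 0.0331) did not overlap with SPONT but were not called, while both were called without SPONT replicate 2 (adjusted p = 0.00361 and 0.00225), and Socs1 also without SPONT replicate 1 (adjusted p = 0.00999). Osmr differed by 0.02 ± 0.18 and Cntfr by −0.15 ± 0.13. The CNTF, IGF-1 and FBS comparisons share the 4 SPONT libraries.

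Serum, added at 4 doses, raised Il6st, Osmr, Socs3 and Bcl3 at every dose and lowered Cntfr from 5% upwards. At 1% FBS 5 of the 10 genes rose and the other 5 were not called (5.63% of all genes rose and 3.15% fell). At 5% 6 rose and 1 fell (19.2% and 14.9% of all genes), at 10% 6 rose and 2 fell (24.2% and 20.8%), and at 20% 6 rose and 3 fell (27.6% and 27.9%). DESeq2 called 5 of the 10 at 1% as well, all of them higher.

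Il6st rose at each dose. Its 4 libraries were at 389.6, 388, 346 and 354 CPM with 1% FBS and 741, 686, 746 and 784 CPM with 5%. They were at 853, 846, 821 and 942 CPM with 10% and 904, 844, 902 and 971 CPM with 20%, against 238, 146, 175.3 and 171.2 CPM in SPONT. The groups at 5% and above lay apart from those below, and 10% and 20% overlapped (1.04 ± 0.13, 2.03 ± 0.14, 2.26 ± 0.13 and 2.27 ± 0.13 on the log2 scale from the lowest dose to the highest, adjusted p at most 0.000352).

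Cntfr went down over the same doses, with means of 63.6 ± 10.1, 34.8 ± 6.46, 22.8 ± 2.45 and 24.1 ± 5.72 CPM (SD, n = 4 each). It was not called at 1% (log2FC −0.22 ± 0.16, adjusted p = 0.354) and was at 5% (log2FC −1.10 ± 0.17, adjusted p = 0.000374), 10% (−1.71) and 20% (−1.68). Lifr was not called at 5% (log2FC −0.43 ± 0.15, adjusted p = 0.0365), except without SPONT replicate 2 (−0.56, adjusted p = 0.00147), and was lower at 10% (log2FC −1.0 ± 0.16, adjusted p = 0.000476) and 20% (log2FC −1.29 ± 0.16, adjusted p = 3.18e-05). The IL6 receptor gene Il6ra (chromosome 3, 89869324–89913196) was at 2.65 ± 0.637 CPM with 1% FBS and 9.33 ± 3.37, 11.1 ± 1.55 and 12.2 ± 1.82 CPM at the higher doses. It was not called at 1% (log2FC −0.10 ± 0.21, adjusted p = 0.782), and at 5, 10 and 20% its log2FC was 1.71 ± 0.24, 1.97 ± 0.15 and 2.05 ± 0.15. Osmr was called at all 4 doses with log2FC between 1.51 and 1.86.

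The feedback and target genes did not follow dose in 1 direction. Socs3 means were 22.4 ± 3.97, 39.9 ± 6.58, 32.3 ± 3.30 and 29.4 ± 5.76 CPM from 1 to 20% FBS, called at every dose (log2FC 1.84 to 2.66). Bcl3 had its highest serum mean at 1% FBS, where the libraries were at 10.3, 12.1, 11.4 and 2.66 CPM and 1 of them stood well below the others (log2FC 3.71 ± 0.51, adjusted p = 0.000668). At 20% it was at 4.27, 2.90, 3.85 and 1.65 CPM (log2FC 2.12 ± 0.40, adjusted p = 0.000677). Socs1 was called at 1% (log2FC 1.07 ± 0.19, adjusted p = 0.00326) and 20% (log2FC 0.90 ± 0.14, adjusted p = 0.000141), and not at 5% (0.48 ± 0.16) or 10% (0.18 ± 0.15). Its call at 1% was lost without SPONT replicate 3 or 4 or 1% FBS replicate 1, 2 or 3 (adjusted p 0.0130–0.0152). Stat3 was called at 5% (log2FC 0.45 ± 0.11, adjusted p = 0.00634) and 10% (log2FC 0.42 ± 0.09, adjusted p = 0.00257). The call at 5% was lost without SPONT replicate 2, 3 or 4 or 5% FBS replicate 1, 2 or 4 (adjusted p 0.0109–0.0199), and that at 10% without 10% FBS replicate 1 (0.0105). Lif was at most 1.06 CPM in any serum library and called lower at 20% (log2FC −1.50 ± 0.39, adjusted p = 0.00574), a call that was lost without SPONT replicate 2, 3 or 4 or 20% FBS replicate 2 or 3 (adjusted p 0.0125–0.0169). At 10% it was not called (log2FC −1.06 ± 0.30, adjusted p = 0.0124), except without 10% FBS replicate 4 (−1.32, adjusted p = 0.00614).

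Clcf1, the gene of a cytokine that binds the CNTF receptor, moved further than Lif and rose from 0.210 ± 0.0828 CPM in SPONT to 12.1 ± 2.49 CPM at 20% (SD, n = 4 each). Of the STAT3 target genes 11 of 27 rose at 1% and the rest were not called, and 21 of 30 rose and 6 fell at 20%. Lcn2 was at 39.7 ± 19.04 CPM at 1% and 12.8 ± 2.64 CPM at 20%, and Steap4 at 23.7 ± 9.85 and 71.5 ± 16.0 CPM. Stat5a, another STAT, rose at every dose, by 2.38 at 1% and 4.26 at 20% FBS. Fibroblast markers moved with serum, from 12.4–15.8 CPM in SPONT to 22.5–124 at 1%, 150–539 at 5%, 201–358 at 10% and 454–546 CPM at 20% FBS. Astrocyte markers were 18010–23570 CPM at 1% and 4323–4955 CPM at 20%. These cultures came from NPC alone, and the study describes myofibroblast-like phenotypes of the NPC at high serum. The part of these marker shifts in the serum changes was not tested.

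With 5% FBS present, CNTF changed fewer of the 10 genes: 3 were higher and 1 was lower than with 5% FBS alone, where 11.3% of all genes were called higher and 12.0% lower. Socs3 was at 48.8, 41.2, 35.1 and 34.7 CPM with 5% FBS and 57.8, 62.5, 66.9 and 55.5 CPM with CNTF and 5% FBS. The groups did not overlap (log2FC 0.53 ± 0.11, adjusted p = 0.00504), but the call was lost without 5% FBS replicate 3 or 4 or CNTF with 5% FBS replicate 1, 2 or 3 (adjusted p 0.0111–0.0159). Bcl3 was at 9.37, 6.97, 3.25 and 3.98 and 18.98, 19.6, 20.9 and 18.6 CPM (log2FC 1.65 ± 0.29, adjusted p = 0.00174). Osmr was at 48.9, 30.2, 22.6 and 29.02 and 69.1, 78.4, 75.3 and 75.5 CPM, also apart (log2FC 1.11 ± 0.20, adjusted p = 0.00202). Socs1 was lower, at 6.54, 5.84, 5.99 and 4.42 CPM with 5% FBS and 3.43, 2.94, 3.74 and 3.36 CPM with CNTF added, with no overlap (log2FC −0.83 ± 0.13, adjusted p = 0.00115). Cntfr was not called (log2FC −0.39 ± 0.11, adjusted p = 0.0177), except without 5% FBS replicate 1 (−0.47, adjusted p = 0.00188). Il6st was not called either (log2FC 0.20, adjusted p = 0.0255), though its libraries did not overlap. They were at 686–784 CPM with 5% FBS and 856–907 CPM with CNTF added. DESeq2 called 6 of the 10 genes here, Cntfr and Il6st included, and 8 for CNTF against SPONT.

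The size of the CNTF effect itself was compared between the 2 media in 1 fit. It differed for 5 of the 10 genes (10.3% of all genes were called with a higher effect in serum and 12.6% with a lower one). With serum minus without, the CNTF effect differed by −4.49 ± 0.42 for Bcl3, −3.70 ± 0.35 for Socs3 and −1.32 ± 0.27 for Osmr on the log2 scale (adjusted p = 7.92e-07, 8.49e-07 and 0.00149). For Socs1, which rose with CNTF alone and was lower with CNTF in serum, the difference was −2.20 ± 0.17 (adjusted p = 9.07e-08). For Lifr, which fell with CNTF alone, it was 0.85 ± 0.18 (adjusted p = 0.0014). Stat3 (log2FC −0.37 ± 0.12, adjusted p = 0.0196) and Cntfr (log2FC 0.57 ± 0.19, adjusted p = 0.0259) were not called, and each was called without 1 library (5% FBS replicate 3 for Stat3, SPONT replicate 1 for Cntfr, adjusted p = 0.00802 and 0.00271). The starting level differs between the media, since Socs3, Bcl3 and Osmr were already higher in 5% FBS than in SPONT.

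**Figure D3:**
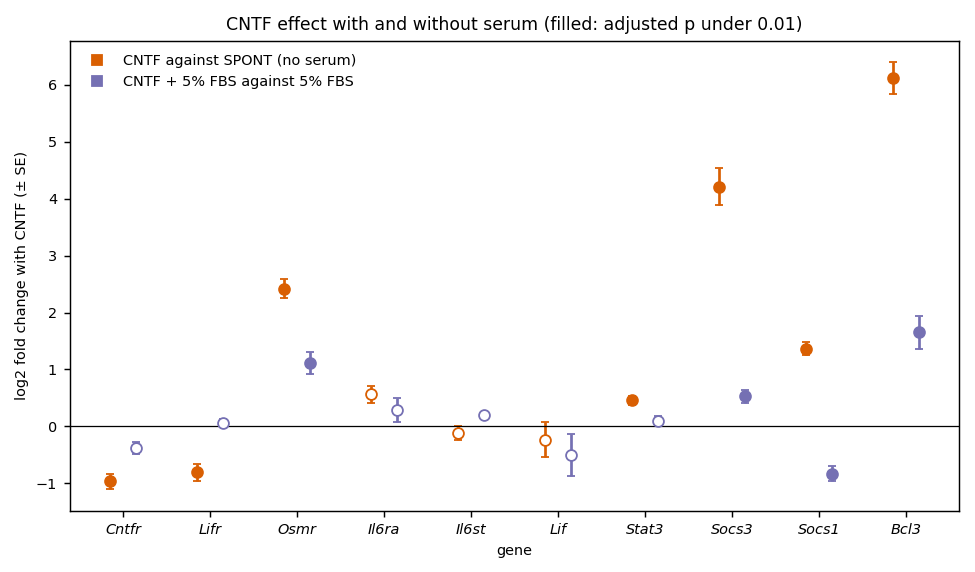
Log2FC ± SE (vertical axis) of the 10 genes with CNTF, in orange against SPONT without serum and in purple against 5% FBS with serum, 4 libraries in each group, with called values filled and others open. The orange points lie above the purple ones for Socs3, Bcl3 and Osmr, and Socs1 is above 0 without serum and below it with serum.

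Directly against CNTF alone, CNTF with 5% FBS had 4 of the 10 genes higher and 5 lower (36.1% and 36.8% of all genes). Il6st was higher by 2.32 ± 0.04 and Il6ra by 1.41 ± 0.10. Bcl3 was lower by −1.42 ± 0.06, Socs1 by −1.74 ± 0.09 and Socs3 by −1.04 ± 0.23 (adjusted p at most 0.000414). The lowest CNTF library of Socs3 exceeded the highest library with CNTF and serum by less than 1 CPM. Lif was lower too (log2FC −1.05 ± 0.33, adjusted p = 0.00742), a call lost without CNTF replicate 1 or 3 or CNTF with 5% FBS replicate 1, 2 or 4 (adjusted p 0.0183–0.0413). Of the STAT3 targets, 7 of 30 fell with CNTF in serum against 5% FBS alone (12.0% of all genes fell) and the other 23 were not called, with a median log2FC of −0.18. For 15 of 30 the CNTF effect was lower with serum than without, with a median difference of −1.14 against −0.05 over all genes. Lcn2 (−4.32), Timp1 (−3.38) and Steap4 (−3.26) were among them. Fibroblast markers were 150–539 CPM in 5% FBS and 20.6–26.95 CPM with CNTF and 5% FBS, and their part in these differences was not tested.

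The pipetting experiment was read for the carrier and the time in it. All its NPC had passed through a pipette, so the effect of pipetting itself was not tested here. None of the 10 genes was called for DCH against medium, where 4.32% of all genes were, or for 4 h in DCH against none (0.320%). Cntfr came nearest, at 55.2, 48.1, 41.4, 48.1 and 42.5 CPM in medium and 32.05, 35.6, 35.8, 36.6 and 36.5 CPM in DCH, without overlap (log2FC −0.41 ± 0.10, adjusted p = 0.0153), and it was the 1 gene of the 10 with an unadjusted p under 0.05 in the first contrast and the 1 called by DESeq2. In the second contrast no gene of the 10 had an unadjusted p under 0.05, and DESeq2, which gave an adjusted p for 4 of them, called none. Stat3 differed by 0.03 ± 0.05 and −0.01 ± 0.05 in the 2 contrasts, and Socs3 by 0.06 ± 0.30 and 0.24 ± 0.32. Lif varied within groups, with 2.72, 2.15, 2.40, 0.970 and 7.13 CPM in DCH.

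Against NPC in DCH, grafts in SCI at 14 d had 6 of the 10 genes higher and 1 lower (28.4% and 23.3% of all genes), and grafts in uninjured cord 5 higher and 1 lower (28.4% and 25.3%). Osmr was at 0.0817, 2.28, 2.58, 3.70 and 1.66 CPM in DCH and 193.9, 149, 173, 106.97 and 115 CPM in SCI grafts. The lowest graft library was far above the highest NPC library (log2FC 6.48 ± 0.62, adjusted p = 1.22e-06). Il6ra was at 0.586, 0.791, 0.555, 2.37 and 1.053 and 25.7, 27.5, 31.3, 32.6 and 28.3 CPM, equally apart (log2FC 5.11 ± 0.43, adjusted p = 3.46e-07). Bcl3 was at 1.99, 3.15, 1.65, 5.23 and 1.90 and 95.7, 53.3, 49.8, 62.3 and 40.1 CPM (log2FC 4.75 ± 0.35, adjusted p = 1.22e-07).

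Socs3 was at 4.92, 5.96, 8.59, 8.80 and 8.17 and 33.7, 26.8, 28.7, 12.1 and 23.1 CPM, with the lowest graft library above all NPC libraries (log2FC 2.10 ± 0.28, adjusted p = 2.3e-05). Il6st rose (log2FC 2.06 ± 0.11, adjusted p = 1.06e-08) and Lifr fell (log2FC −0.99 ± 0.23, adjusted p = 0.00204). Cntfr also rose (log2FC 0.96 ± 0.16, adjusted p = 0.000129), but with NPC P15 as the reference neither Cntfr (0.38, adjusted p = 0.0664) nor Lifr (−0.53, adjusted p = 0.0824) was called, and Stat3 was (0.89, adjusted p = 0.000221). In uninjured cord Osmr (4.96 ± 0.66), Il6ra (3.33 ± 0.57), Bcl3 (2.72 ± 0.44), Cntfr (1.73 ± 0.17) and Il6st (1.19 ± 0.10) were higher than in DCH. Stat3 was lower there (log2FC −0.33 ± 0.09, adjusted p = 0.00549), but turned to higher against NPC P15 (0.42, adjusted p = 0.00442) and was not called with DESeq2's size factors, without the filter, or without any one DCH library or uninjured-cord replicate 2 or 3 (adjusted p 0.0114–0.0453). Socs3 was not called in uninjured cord (log2FC 1.09 ± 0.42, adjusted p = 0.0384), except without replicate 2 (1.33, adjusted p = 0.0045). Both graft comparisons share the 5 DCH libraries. Myeloid markers were 1.42–2.44 CPM in DCH, 472–1530 CPM in SCI grafts and 189–1185 CPM in uninjured-cord grafts, and fibroblast markers were 13.6–19.9, 1045–3871 and 1693–4404 CPM. Oligodendroglia markers were 1265–1440, 3992–9822 and 11170–25470 CPM. Their part in the rise of these genes was not tested.

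Between the injured and the uninjured cord, grafts recovered at 14 d differed in 4 of the 10 genes, all higher in SCI, where 2.09% of all genes were called higher and 2.55% lower. The median log2FC was 1.07 over the 10 genes and −0.05 over all genes. Bcl3 was at 25.9, 9.55, 29.1, 14.5 and 12.1 CPM in uninjured cord and at or above 40.1 CPM in every SCI graft (log2FC 1.99 ± 0.30, adjusted p = 0.00133). Osmr was at 86.4, 50.1, 83.2, 51.5 and 45.1 CPM in uninjured cord, below every SCI library (log2FC 1.49 ± 0.21, adjusted p = 0.000916). Il6ra was at 5.21, 13.3, 7.15, 14.7 and 11.98 CPM, again below all SCI grafts (log2FC 1.75 ± 0.30, adjusted p = 0.00264), a call lost without SCI replicate 3 (adjusted p = 0.0102).

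Il6st was at 360.1, 314, 319, 356 and 274 CPM in uninjured cord and 608, 567, 461, 383 and 392 CPM in SCI (log2FC 0.84 ± 0.16, adjusted p = 0.00465). The groups were separate, but the call was lost without SCI replicate 1, 2 or 3 or uninjured-cord replicate 2, 3 or 4 (adjusted p 0.0104–0.0177). Cntfr was lower in every SCI graft than in any uninjured-cord graft and was not called (log2FC −0.80 ± 0.22, adjusted p = 0.0273). Socs3 was at 20.9, 4.31, 20.4, 22.1 and 9.02 CPM in uninjured cord and overlapped with SCI (log2FC 0.98 ± 0.39, adjusted p = 0.118), as did Socs1 (log2FC 1.38 ± 0.55, adjusted p = 0.118) and Stat3 (log2FC 0.44 ± 0.16, adjusted p = 0.0941). Lif was counted 0 times in 3 of the 5 uninjured-cord libraries, which allows up to 3 counts in each, and 81 and 130 times in the others. Of 30 STAT3 target genes 9 rose and the other 21 were not called, led by Lcn2 (log2FC 6.05 ± 0.45), Steap4 (log2FC 3.57 ± 0.32), Nfkbiz, which encodes another nuclear IκB protein (log2FC 2.85 ± 0.31), and Timp1 (log2FC 2.72 ± 0.32). Summed myeloid and summed astrocyte markers overlapped between the 2 groups, while neuron markers were 741–3507 CPM in uninjured cord and 101.9–365 CPM in SCI, and oligodendroglia markers also did not overlap. Their part in these differences was not tested.

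In dSCI grafts Bcl3 (log2FC 1.52 ± 0.28, adjusted p = 0.00481), Il6ra (log2FC 1.82 ± 0.37, adjusted p = 0.00791) and Osmr (log2FC 1.24 ± 0.26, adjusted p = 0.00963) were higher than in uninjured cord, 3 of the 10 genes, where 2.55% of all genes were called higher and 1.64% lower. Each overlapped between groups, and each call was lost when single libraries were left out. That of Osmr was lost without any 1 of them except dSCI replicate 4 (adjusted p 0.0116–0.0294), that of Il6ra without any uninjured-cord library or dSCI replicate 2, 3 or 4 (0.0111–0.0248), and that of Bcl3 without uninjured-cord replicate 2 or 4 or dSCI replicate 1, 2 or 3 (0.0116–0.0146). Il6ra in dSCI was at 23.5, 46.4, 42.9, 42.99 and 10.7 CPM, with 1 library well below the others. Myeloid markers were 909–9230 CPM and fibroblast markers 7211–27570 CPM in dSCI grafts, the latter above every uninjured-cord graft, and their part in these calls was not tested. STAT3 targets were higher for 11 of 30 genes and not called for the other 19. Against SCI grafts, none of the 10 genes was called in dSCI (1.83% of all genes were), although 2 (Cntfr and Bcl3) had an unadjusted p under 0.05, and DESeq2 called none.

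At 5 d the SCI grafts had the highest Lif and Socs1 means of all 23 groups. Lif was at 3.42, 10.8, 7.97, 2.61 and 3.19 CPM at 5 d and 0.621, 0.878, 0.659, 0.747 and 2.12 CPM at 14 d, without overlap (log2FC −2.21 ± 0.63, adjusted p = 0.0368). Socs1 was at 31.01, 25.1, 24.9, 8.11 and 13.9 CPM at 5 d and 5.51, 7.23, 3.56, 10.8 and 7.78 CPM at 14 d (log2FC −1.36 ± 0.40, adjusted p = 0.0413). Socs3 was at 25.7, 73.4, 79.5, 22.9 and 79.6 CPM at 5 d, with 3 libraries above and 2 within the 14 d range (log2FC −0.99 ± 0.36, adjusted p = 0.0978). None of the 10 genes was called between 14 d and 5 d (5.30% of all genes were), although 6 had an unadjusted p under 0.05 and DESeq2 called 3 (Osmr, Lif and Bcl3). Leaving out 14 d replicate 4 or 5 d replicate 4 (Osmr), 5 d replicate 4 (Il6ra and Socs1) or 14 d replicate 5 (Lif) brought these genes to calls (adjusted p 0.00145–0.00983). The 5 d libraries were single-read and shallower, so time and read type cannot be told apart, and fibroblast markers were 5920–17890 CPM at 5 d against 1045–3871 CPM at 14 d. Il6, near 0 in every culture group, had a mean of 1.47 ± 1.89 CPM at 5 d (SD, n = 5).

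**Figure D4:**
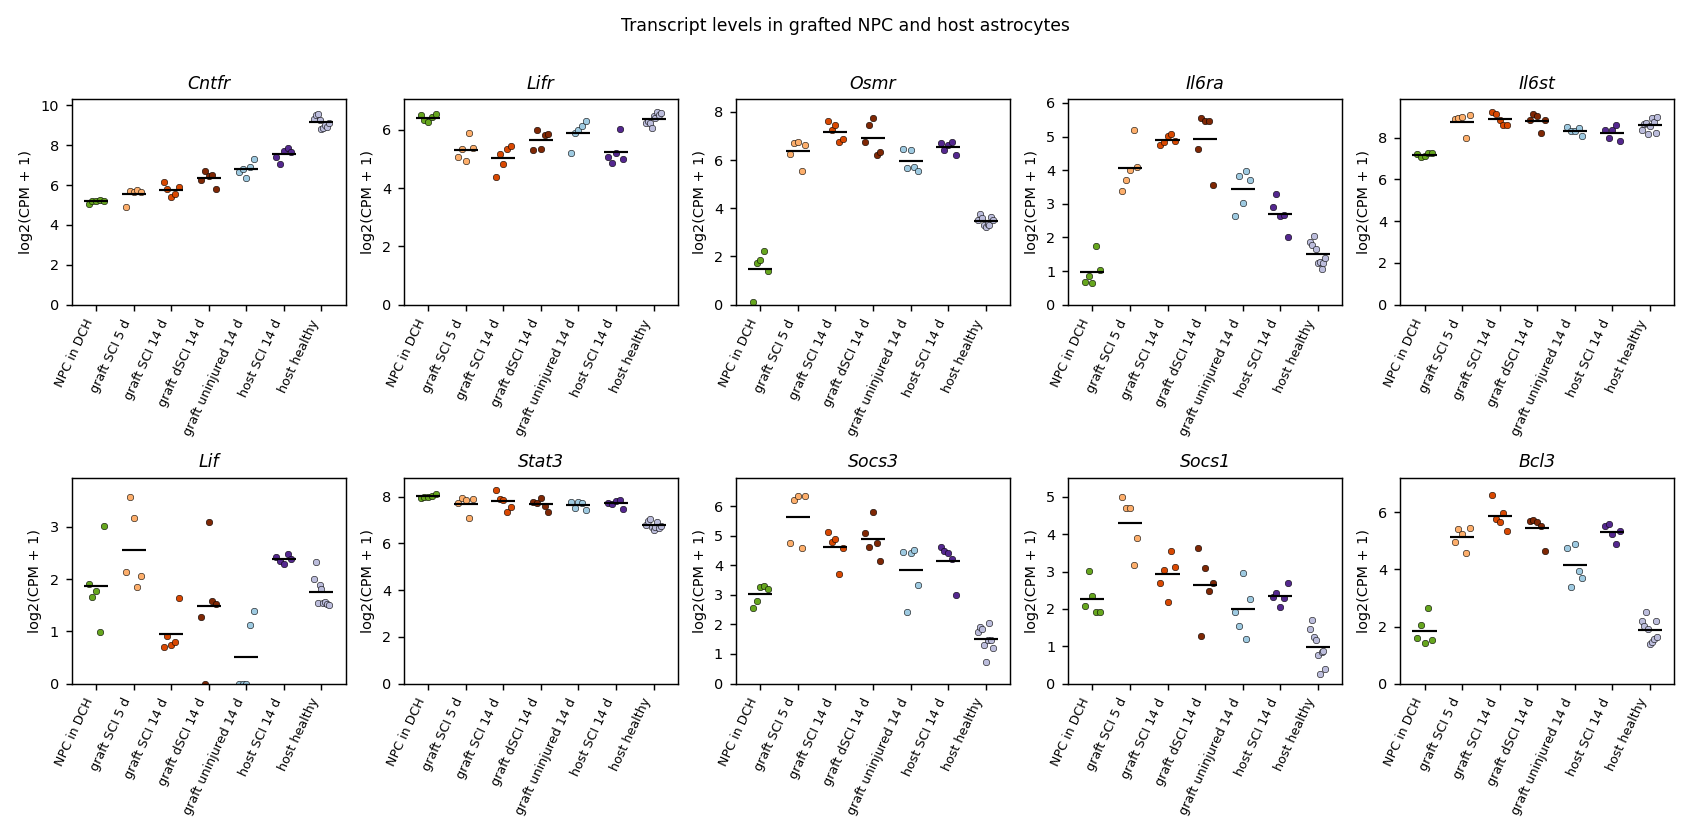
Level of the 10 genes as log2(CPM + 1), 1 point for each library of NPC in DCH, the 4 graft groups and the 2 host groups, with a line at the group mean. Osmr, Il6ra and Bcl3 are above NPC in DCH in every graft library, and Cntfr is highest in healthy host astrocytes.

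In host astrocytes all 10 genes were called after SCI, 7 higher and 3 lower, where 22.2% of all genes were higher and 18.8% lower. Their median log2FC was 1.09, against 0.02 over all genes. The labels do not say whether each host library came from a separate animal. Bcl3 ranged 1.64 to 4.71 CPM with a median of 2.81 in the 9 healthy libraries. It was at 45.5, 47.05, 36.98, 28.5 and 39.9 CPM in the 5 injured ones. The groups lay far apart (log2FC 3.65 ± 0.21, adjusted p = 5.53e-10). Osmr ranged 8.29 to 12.7 CPM with a median of 10.3 in healthy cord and was at 103, 85.3, 96.2, 106.7 and 72.1 CPM after SCI, also far apart (log2FC 3.01 ± 0.10, adjusted p = 2.3e-12). Socs3 ranged 0.668 to 3.09 CPM with a median of 1.78 and was at 23.3, 21.2, 20.4, 17.6 and 7.001 CPM after SCI. There 1 injured library was well below the other 4 but above all healthy ones (log2FC 3.0 ± 0.28, adjusted p = 9.55e-08).

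Socs1 (log2FC 1.84 ± 0.40, adjusted p = 0.000817) and Stat3 (log2FC 0.75 ± 0.07, adjusted p = 1.36e-07) rose without overlap, and Il6ra rose with a small one (log2FC 1.42 ± 0.25, adjusted p = 0.000117). Stat3 ranged 94.5 to 130.2 CPM with a median of 106.8 in healthy libraries and was at 211, 207, 221, 233 and 178.7 CPM after SCI. Cntfr ranged 456 to 761 CPM with a median of 554 in healthy libraries. After SCI it was at 170.4, 131, 210.0, 232 and 202 CPM, a fall with no overlap (log2FC −1.79 ± 0.15, adjusted p = 2.78e-08). Lifr ranged 65.2 to 95.7 CPM with a median of 83.1 in healthy libraries. After SCI it was at 32.2, 28.1, 36.3, 64.1 and 31.05 CPM, with 1 injured library close to the healthy range (log2FC −1.30 ± 0.17, adjusted p = 4.58e-06).

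Il6st was lower (log2FC −0.55 ± 0.15, adjusted p = 0.00407), with overlap, and the call was lost without SCI replicate 2 or 5 (adjusted p = 0.0152 and 0.0122). Lif was higher (log2FC 0.63 ± 0.19, adjusted p = 0.00946), and that call was lost without any library other than healthy replicate 2 (adjusted p 0.0102–0.0211). Of 7 other ligand genes tested 6 rose and 1 was not called. Clcf1 went from 0.616 ± 0.418 (SD, n = 9) to 4.86 ± 2.39 CPM (SD, n = 5). Osm, the oncostatin M gene, went from 0.00988 ± 0.0155 to 0.490 ± 0.444 CPM. STAT3 targets were higher for 18 of 30 genes and lower for 3, with Lcn2 (log2FC 8.94 ± 0.58), Steap4 (log2FC 6.45 ± 0.46), Timp1 (log2FC 5.38 ± 0.28) and the adhesion gene Icam1 (log2FC 4.75 ± 0.21) the largest. Summed astrocyte markers overlapped between healthy and injured hosts, at 25220–32280 and 24690–36760 CPM. The sum hides genes that moved apart: in the study's mean FPKM, Gfap was higher after SCI and Gja1 and Slc1a3 were much lower. Aqp4 and S100b were only slightly lower there, and these means are given without a spread. Myeloid markers were 14.8–33.5 CPM in healthy and 248–1782 CPM in injured hosts, without overlap. Fibroblast markers were 149–253 and 614–1410 CPM, and oligodendroglia markers 5130–11010 and 21070–35660 CPM, also without overlap. Neuron markers were 138–211.5 and 10.9–118.8 CPM and endothelial markers 3.675–6.60 and 9.06–15.2 CPM, again without overlap. The part of these cells in the changes was not tested.

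Grafts in SCI, recovered at 14 d, and host astrocytes 14 days after SCI differed in 4 of the 10 genes, 2 higher and 2 lower in grafts (6.79% and 7.84% of all genes). Cntfr was at 70.0, 54.2, 42.1, 46.3 and 59.4 CPM in grafts and 170.4, 131, 210.0, 232 and 202 CPM in host astrocytes, with no overlap (log2FC −1.85 ± 0.20, adjusted p = 4e-05). Il6ra was at 25.7, 27.5, 31.3, 32.6 and 28.3 and 6.55, 8.79, 5.18, 5.35 and 3.06 CPM, higher in every graft (log2FC 2.31 ± 0.25, adjusted p = 4e-05). Osmr was higher in grafts (log2FC 0.62 ± 0.15, adjusted p = 0.00999) and Lif lower (log2FC −2.06 ± 0.48, adjusted p = 0.00752), though the first call was lost without any library other than graft replicate 4 (adjusted p 0.0132–0.0358) and the second without any other than graft replicate 5 (0.0137–0.0216). Il6st was not called (log2FC 0.61 ± 0.15, adjusted p = 0.0112), except without graft replicate 4 (adjusted p = 0.00694). Socs3 (log2FC 0.44 ± 0.30, adjusted p = 0.321), Bcl3 (log2FC 0.53 ± 0.20, adjusted p = 0.0761) and Stat3 (log2FC 0.05 ± 0.14, adjusted p = 0.855) were not called. The hosts are RiboTag mice without grafts and the graft recipients a different set of animals. The study counts the 14 d of grafts both from injury and from grafting, so the time since injury may not have been the same. Astrocyte markers were 9576–22290 CPM in these grafts and 24690–36760 CPM in injured hosts, and oligodendroglia markers were 3992–9822 and 21070–35660 CPM, neither with overlap. Myeloid markers overlapped, at 472–1530 and 248–1782 CPM. The part of these cells in the differences was not tested.

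The effect of injury itself was compared between grafts and host astrocytes in 1 fit, which called 5 of the 10 genes (6.11% of all genes with a higher effect in grafts and 10.7% with a lower one). The injury effect, graft minus host, was lower for Socs3 (−2.05 ± 0.50, adjusted p = 0.00296), Bcl3 (−1.69 ± 0.37, adjusted p = 0.00119) and Osmr (−1.55 ± 0.22, adjusted p = 5.84e-06). Il6st, which rose in grafts and fell in hosts, differed by 1.36 ± 0.21 (adjusted p = 2.69e-05). Cntfr differed by 0.95 ± 0.25 (adjusted p = 0.00648), a call lost without healthy replicate 3, injured host replicate 1 or 2, SCI graft replicate 1 or 5, or uninjured-cord graft replicate 1 or 3 (adjusted p 0.010–0.0161). Uninjured-cord grafts had higher means than healthy host astrocytes for Osmr, Bcl3 and Socs3 and lower means for Cntfr and Il6st, with Osmr at 63.3 ± 19.8 CPM (SD, n = 5) against 10.1 ± 1.43 CPM (SD, n = 9) and Bcl3 at 18.2 ± 8.71 against 2.81 ± 1.04 CPM. Of 30 STAT3 target genes the injury effect was lower in grafts for 13 and higher for 3, the largest difference being that of Icam1 (−5.17).

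**Figure D5:**
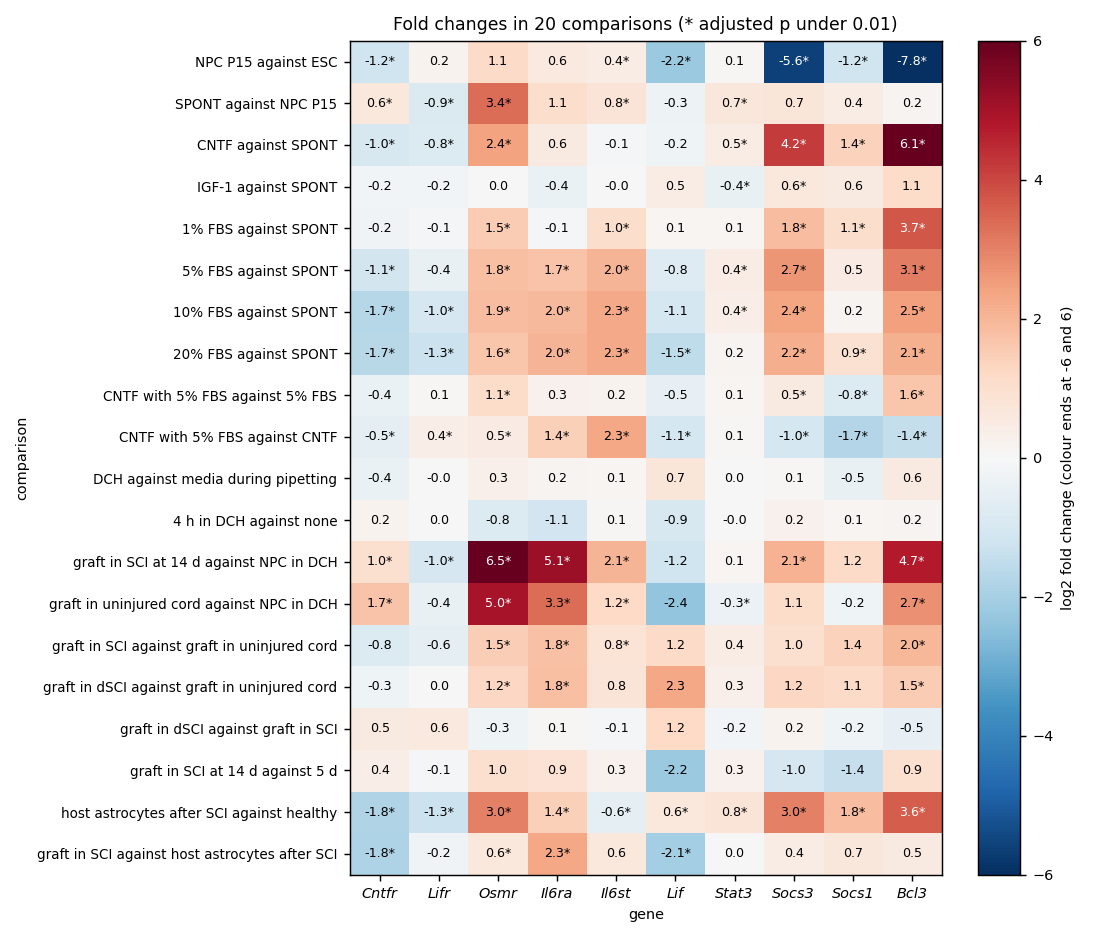
Log2FC of the 10 genes (columns) in 20 comparisons between groups (rows), from edgeR, red where higher and blue where lower, with called values marked by an asterisk. Bcl3, Osmr and Socs3 are called higher with CNTF, with serum at every dose and after host SCI, and Cntfr and Lifr are called lower with CNTF and after host SCI.

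Ordered over all 23 groups, each gene had its own extremes. Cntfr was highest in healthy host astrocytes (579.6 ± 114 CPM) and lowest with 10% FBS (22.8 ± 2.45 CPM). Il6st ran from 905 ± 51.8 CPM with 20% FBS to 81.5 ± 5.84 CPM in ESC, and Osmr from 148 ± 36.99 CPM in SCI grafts to 0.429 ± 0.358 CPM in ESC. Lifr was highest in NPC P30 (95.6 ± 2.83 CPM) and lowest with 20% FBS (12.9 ± 1.58 CPM). Il6ra ran from 33.3 ± 15.5 CPM in dSCI grafts to 0.369 ± 0.130 CPM in NPC P5.

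Stat3 had the narrowest span, from 343.95 ± 11.6 CPM with CNTF and 5% FBS to 110.2 ± 12.3 CPM in healthy host astrocytes. Socs3 ran from 201 ± 8.61 CPM in ESC to 1.97 ± 0.775 CPM in healthy host astrocytes, with CNTF the next group below ESC. Bcl3 was highest in ESC (155 ± 15.8 CPM) and lowest in NPC P15 D3 (0.311 ± 0.0577 CPM). Socs1 was highest in 5 d grafts (20.6 ± 9.34 CPM) and lowest in NPC P15 D2 (0.736 ± 0.317 CPM), and Lif highest in 5 d grafts (5.60 ± 3.63 CPM) and lowest with 20% FBS (0.288 ± 0.152 CPM).

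Most neighbours in these orders overlapped. Of 22 neighbouring pairs per gene, 3 were separate for Cntfr, Il6st, Osmr and Stat3, 2 for Lifr, Socs3 and Bcl3, 1 for Il6ra and Socs1, and 0 for Lif. Healthy host astrocytes lay apart from injured ones at the top of the Cntfr order, and ESC apart from CNTF, and CNTF apart from CNTF with 5% FBS, at the top of the Socs3 order.

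Genes near in pattern over the 23 group means, of 14157 genes compared, are a description, since the groups share cell line and libraries. For Socs3 they were Jak3 (Pearson r 0.926 on log2(CPM + 1)) and Sbno2 (0.881). For Osmr they were Casp12 (0.979), Ctsb (0.967) and Mylk (0.966), for Il6st Ogn (0.955), Bace2 (0.951) and Oxtr (0.950), and for Il6ra C1s1 (0.948) and Lbp (0.947). For Bcl3 the nearest was Esyt3 (0.885), for Cntfr Prodh (0.912), for Lifr Cfap20dc (0.881), for Stat3 Col11a1 (0.812), for Lif Tcaf2 (0.784) and for Socs1 Pcgf2 (0.741).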

How the data were processed

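Ribosome-associated RNA was sequenced from mouse ESC, NPC cultures, grafts and host astrocytes. The authors deposited 1 table of raw read counts per gene for each library, made in Galaxy by trimming with Trimmomatic, aligning to mm10 with HISAT2 and counting with featureCounts (versions not given in the sources used here). Among low, non-zero counts, even values were more frequent in the 96 paired-end libraries (53.1–73.8%) than in the 11 single-read ones (43.1–48.5%). This is as if paired fragments tended to count as 2, in which case total counts overstate the number of independent molecules. The counting setting is not stated. A floor of 3 counts was used for detection.

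Genes were named by Entrez ID from RefSeq GRCm38.p6 (25275 of 27179 matched), and FPKM used union exon lengths. Each comparison used only its own groups, in edgeR 4.0.16 (R 4.3.3): filterByExpr at a minimum count of 10, TMM scaling, the quasi-likelihood F test and Benjamini-Hochberg adjustment over all genes tested, with calls at an adjusted p below 0.01 as in the study's methods. The 2 effect comparisons were contrasts over 4 groups in 1 fit. Alternatives were DESeq2 1.42.0, its size factors, no filter, a filter of 1 CPM, other reference groups, a replicate block and leaving out each library. The code was tested on simulated counts with changes of log2FC 1 and 2 in either direction. For CNTF against SPONT it called 90 of 100 and 100 of 100 of them. For SCI against uninjured-cord grafts it called 8 of 99 and 48 of 96, so an uncalled gene there may still differ by that much. Tables and plots were made in Python 3.11.15.

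The 10 genes and the lists (ligands, receptors and kinases, negative regulators, STAT3 targets, cell markers) were chosen with earlier results of these data known. Named were the 10 genes throughout, up to 4 called genes of a list with the largest change in a comparison, ligand genes whose mean reached 1 CPM in some group, and the 3 genes nearest in pattern, of which some are not reported here. The genes Jak1, Jak3, Stat5a, Gfap, Socs2, Socs5, Pias1, Lcn2, Steap4 and Timp1, where given outside that rule, were chosen after their values were seen. By correlation of their deviations, replicate numbers were taken to pair the samples in 1 comparison, 5% FBS against SPONT (r 0.115–0.319 for all 4 pairs). Of these, 3 were best matches, and the block changed no call of the 10 genes. Against SPONT, r was also positive for all 4 pairs at 10% FBS (0.0781–0.546) and 20% FBS (0.0147–0.235), with 2 best matches each. There and elsewhere the numbers were taken as names. Il6ra, Stat3 and Bcl3 overlap non-coding genes that were not counted.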

Additional observations from a re-analysis of the deposited data

Results flagged for a closer look

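Within groups of 4 to 9 libraries, the highest or lowest library lay far from the rest in 13 of 230 gene and group pairs tested, where chance gives about 1 in 20 (11.5). In NPC in DCH these were the lowest Cntfr library (32.05 CPM) and the highest Il6ra (2.37 CPM) and Lif (7.13 CPM) libraries, and in NPC in medium the highest Lif library (3.83 CPM). In culture they were the lowest Lifr library with CNTF (14.7 CPM) and the lowest Socs1 library with 1% FBS (5.63 CPM).

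In 5 d grafts the lowest Cntfr (29.2 CPM), the lowest Il6st (251.9 CPM) and the highest Il6ra (35.4 CPM) libraries stood apart. In SCI grafts at 14 d it was the highest Lif library (2.12 CPM), and in dSCI grafts the highest Lif (7.495 CPM) and the lowest Bcl3 (24.2 CPM) libraries. In injured host astrocytes the highest Lifr library (64.1 CPM) stood apart. The cause of these values was not tested.

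The CNTF effect differed between media with and without 5% FBS, by the contrast of the 2 effects, for Lifr (0.85), Osmr (−1.32), Socs3 (−3.70), Socs1 (−2.20) and Bcl3 (−4.49 on the log2 scale). The injury effect differed between grafts and host astrocytes for Cntfr (0.95), Il6st (1.36), Osmr (−1.55), Socs3 (−2.05) and Bcl3 (−1.69).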

How the results depend on the processing

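Of the 106 calls of the 10 genes, 1 was lost with DESeq2's size factors, 1 with DESeq2's test, 4 without the filter and 20 in at least 1 fit that left out a library. Of the uncalled results, DESeq2's test gained 15 of 103 and leaving out a library 15 of 114, and the stricter filter gained 1. The calls of CNTF against SPONT held in every alternative run for Cntfr, Lifr, Osmr, Stat3, Socs3, Socs1 and Bcl3. The sign turned for Stat3 in NPC P15 against ESC with NPC P15 D3 in place of P15 (−0.31) and in uninjured-cord grafts with NPC P15 as the reference (0.42). DESeq2's size factors shifted the median of all genes by 0.116 in uninjured-cord grafts against NPC in DCH. TMM-scaled CPM moved 36 of 230 group levels by more than the spread.

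The number of genes called moved by over 1.5 times with DESeq2's test for IGF-1 (979 to 3619), 1% FBS (1312 to 2555), DCH against medium (599 to 1021), 4 h in DCH (44 to 162), SCI against uninjured-cord grafts (734 to 1917), dSCI against uninjured-cord grafts (666 to 1731), dSCI against SCI grafts (289 to 1274), grafts at 14 d against 5 d (811 to 1773) and SCI grafts against injured hosts (2425 to 3696). It moved without the filter for dSCI against SCI grafts (440) and with the stricter filter for 4 h in DCH (74).

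With a replicate block the counts were 1 for IGF-1, 833 for 1% FBS, 393 for DCH against medium, 35 for dSCI against uninjured-cord grafts, 0 for dSCI against SCI grafts (4162 at an unadjusted p under 0.05 in edgeR), 269 for 14 d against 5 d, 4221 for injured hosts, 1177 for SCI grafts against injured hosts and 1695 for the graft and host contrast, and 16 of the 106 calls were lost. In these the pairing rests on shared numbers only. Leaving out 1 library gave 2027–6049 genes for CNTF, 0–5724 for IGF-1 (where the fits with 0 had 5342–6156 at an unadjusted p under 0.05 in edgeR), 628–1975 for 1% FBS, 1968–3908 for CNTF with 5% FBS against 5% FBS, 385–656 for DCH against medium, 232–1576 for SCI against uninjured-cord grafts, 197–864 for dSCI against uninjured-cord grafts, 0–1061 for dSCI against SCI grafts (2996–3311 unadjusted where 0), 350–1191 for 14 d against 5 d and 2702–6049 for the CNTF and serum contrast. The highest of these counts came without SPONT replicate 2 for CNTF, IGF-1, 1% FBS and the CNTF and serum contrast, and without SCI graft replicate 5 for SCI grafts against uninjured-cord and dSCI grafts. The cause was not tested. Low counts limit Lif, Il6ra, Bcl3 and Osmr in NPC, where libraries fell to a few counts. For Osmr the lowest library of NPC in DCH, the reference of the graft comparisons, had 6 counts.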

Other observations

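The 4 CNTF libraries of Socs3 fell into a lower and a higher pair (67.3, 69.5, 149.8 and 177 CPM). This was noticed after its values were seen, and the other genes were then read for the same split. Of 9388 genes whose mean reached 10 CPM, 8 had replicates 3 and 4 both more than 1.5 times above replicates 1 and 2 (Egr1, Fos, Ier2, Socs3, Junb, Zfp36, Jun and Tcim), and 0 had the reverse. Most of these are immediate early genes, transcribed within minutes of a stimulus. Egr1 was at 30.2, 36.6, 199.0 and 231.4 CPM in the 4 CNTF libraries, against 26.9 to 37.3 CPM in SPONT. Bcl3 (51.5, 49.3, 43.01 and 49.2 CPM) and Osmr (47.9, 51.97, 47.4 and 49.3 CPM) did not split this way. The cause was not tested.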
